A study of Mus musculus with 6 samples.

Results

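The genes described here are the chromosome 11 neighbours of Ccl5, the chemokine gene deleted in the CCL5-/- mice of this series. They are the genes whose locus starts between 80 and 90 Mb on chromosome 11 and that had 20 or more reads summed over the 4 libraries of the count table. Symbols beginning Ccl, Slfn or Wfdc were left out. The rule gave 77 of the 24391 genes in the table. Of the 156 loci listed in that interval, 20 had one of the 3 excluded prefixes, 41 had fewer than 20 reads and 18 had no row of the same symbol in the count table. Of the 77 genes, 74 passed the filter on low counts and were tested. The Ccl5 locus starts at 83.5 Mb, so that 22 of the genes start on its lower-coordinate side and 55 on its higher-coordinate side.

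The series profiled RNA of tumour-associated macrophages (TAMs), macrophages isolated from mouse colorectal tumours, by sequencing. All mice carried the BALB/C strain label and were either CCL5-/- or wild type (WT). By the labels, cells high in CD11b and low in F4/80 (F4/80low) gave 2 CCL5-/- and 2 WT libraries. Cells low in CD11b and high in F4/80 (F4/80hi) gave 1 library of each label. No age, sex, colony or treatment is used here, and the labels do not tie the libraries to single or pooled mice. The p-values then reflect the spread between these libraries alone, which may be technical.

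A targeted allele is made in embryonic stem cells and then bred into a strain, and genes close to it on the chromosome are inherited together with it. The genes beside a deleted gene are therefore of interest in any knockout comparison. The labels used here give neither the stem cell strain nor the number of backcrosses, and sequence variants were not measured. Loss of Ccl5 and the chromosome segment carried with the deleted allele cannot be told apart in these groups. The interval holds genes of unrelated function. Among them are Dhx40, a member of the DEAH-box family of proteins that unwind RNA with energy from ATP, Cltc, which encodes the clathrin heavy chain of endocytic vesicles, the DNA repair genes Lig3, Rad51c and Brip1, and the myeloid peroxidase gene Mpo.

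The libraries did not differ by genotype alone. Total counts ranged from 9280635 to 22411342. The ribosomal RNA precursor Rn45s made up 50.03% and 58.4% of counts in the CCL5-/- and WT replicate 1 libraries and 1.38% and 0.844% in the CCL5-/- and WT replicate 2 libraries. Counts of all other genes summed to between 3857011 and 22222208. With edgeR at an adjusted p under 0.05, 5 of the 74 tested neighbours were higher in replicate 2 than in replicate 1 (6.76%, against 13.9% of all tested genes and 13.5% of the tested chromosome 11 genes outside the interval). Another 22 were lower in replicate 2 (29.7%, against 18% and 14.9%). A change within each same-numbered pair of libraries was therefore also computed for every neighbour. It is the difference of log2 CPM (CPM, counts scaled to library size with TMM factors, here with a prior count of 2). These pair values are given by name for some neighbours and otherwise enter medians and counts. The macrophage genes Lyz2, Cd68, Csf1r, Adgre1 and Itgam were detected in all 4 libraries, the last 2 encoding F4/80 and CD11b. Itgam was at 580 and 144 CPM in CCL5-/- replicates 1 and 2 and at 598 and 180 CPM in WT, so it was lower in replicate 2 of either genotype. Adgre1 was at 53.7 and 35.3 CPM in CCL5-/- and at 35.6 and 51.8 CPM in WT. The targeted gene Ccl5 had 35 and 82 reads in the CCL5-/- libraries and 255 and 3976 in the WT libraries (log2 change -4.64, SE 0.69).

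Dhx40 was the neighbour with the lowest change in both pairs. It had 64 and 108 reads in CCL5-/- replicates 1 and 2, and 218 and 522 reads in WT replicates 1 and 2. Its level was 7.44 and 3.97 CPM in the CCL5-/- libraries and 37.4 and 17.2 CPM in the WT libraries. Both CCL5-/- libraries lay below both WT libraries, and within each genotype replicate 2 was the lower one. The CCL5-/- level was 19.9% of the WT level for replicate 1 and 23.1% for replicate 2.

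Averaged over libraries, Dhx40 was at 5.70 ± 2.46 CPM in CCL5-/- and 27.3 ± 14.3 CPM in WT (mean ± SD, n = 2 each). The edgeR quasi-likelihood test gave a log2 change of -2.27 (SE 0.57, unadjusted p = 0.0091), which did not pass over all genes (adjusted p = 1.0). In that fit 0 of 74 tested neighbours passed, as did 0 (0%) of all 12710 tested genes, and 0 (0%) of the 881 tested chromosome 11 genes outside the interval. At an unadjusted p under 0.05 the counts were 1 neighbour (Dhx40), against 41 of all tested genes (0.323%) and 1 of the chromosome 11 genes outside (0.114%). DESeq2 and limma-voom without a replicate term also passed 0 neighbours. With 2 libraries against 2, an exact two-sided permutation test of 1 gene cannot give a p under 0.333.

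With a term for the replicate number, the log2 change of Dhx40 was -2.21 (SE 0.25, edgeR adjusted p = 0.0030), the smallest p of the 12710 genes. With this term in a fit of 4 libraries, the SE and p of a gene rest largely on spread borrowed from other genes. The labels do not state that the replicate numbers pair libraries, and an exact permutation test within pairs has a still higher floor than the one above. The deleted gene Ccl5 did not pass in this fit (log2 change -4.58, edgeR adjusted p = 0.099, rank 28 by p). Nor did Ccl5 pass in the edgeR fit without the term. Dhx40 was the only neighbour that passed in the fit with the term, 1 of 74. This compares with 10 of all tested genes (0.0787%) and 0 (0%) of the chromosome 11 genes outside the interval. At an unadjusted p under 0.05 in this fit there were 6 neighbours, against 745 of all tested genes (5.86%) and 47 of the chromosome 11 genes outside (5.33%). They were Dhx40, Myo1d, Rnf135 and Rffl, lower in CCL5-/-, and Nle1 and Prr11, higher. The within-pair values of Dhx40 were -2.31 and -2.08. DESeq2 with the replicate term (log2 change -2.20, adjusted p = 2.9e-05) and limma-voom with it (-2.20, adjusted p = 0.0010) also passed Dhx40 and no other neighbour. Ccl5 passed in both as well. These 2 fits were added after seeing the data. The authors' deposited table lists Dhx40 at a log2 change of -0.94 and does not pass it (adjusted p = 1.0), although only Ccl5 has a smaller p there. How the changes in the authors' deposited table were scaled is not given, so their size is not compared.

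Leaving out 1 library kept Dhx40 lower in CCL5-/-. The log2 change of the fit without the replicate term was -2.72 without CCL5-/- replicate 1, -1.87 without CCL5-/- replicate 2, -1.60 without WT replicate 1 and -2.73 without WT replicate 2, none of which passed over all genes (lowest adjusted p = 0.26). In each of these fits 1 genotype keeps a single replicate number, and that lone library is assumed to vary like the rest.

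Markers of other cells differed between the libraries as well. Of 12 neutrophil markers in the table, 11 were lower in CCL5-/- in both pairs, against 26.5% of all tested genes. The summed level of the 12 was 683 and 315 CPM in CCL5-/- and 3665 and 539 CPM in WT. Elane had at most 1 read in any library. In the same libraries the endothelial markers summed to 14.6 and 14.4 CPM in CCL5-/- and to 23.0 and 19.8 CPM in WT (5 of 6 lower in both pairs), and T and NK cell markers to 110 and 111 CPM in CCL5-/- and 67.3 and 286 CPM in WT (1 of 9 lower in both pairs). Sums in CCL5-/- and WT were 7.90 and 17.8 against 5.84 and 90.3 CPM for B and plasma cells, 14.6 and 28.7 against 19.2 and 21.9 CPM for eosinophils and mast cells, and 691 and 1030 against 776 and 875 CPM for fibroblasts. They were 26.9 and 30.2 against 32.1 and 17.4 CPM for epithelial and tumour cells. Macrophage markers summed to 5209 and 4762 CPM in CCL5-/- and to 4452 and 7809 CPM in WT. The part of these cells in the Dhx40 difference was not tested. The median change of the neutrophil markers was -2.53 for replicate 1 and -0.83 for replicate 2. In bulk samples fewer cells of a type and less RNA per cell cannot be told apart.

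**Figure D1:**
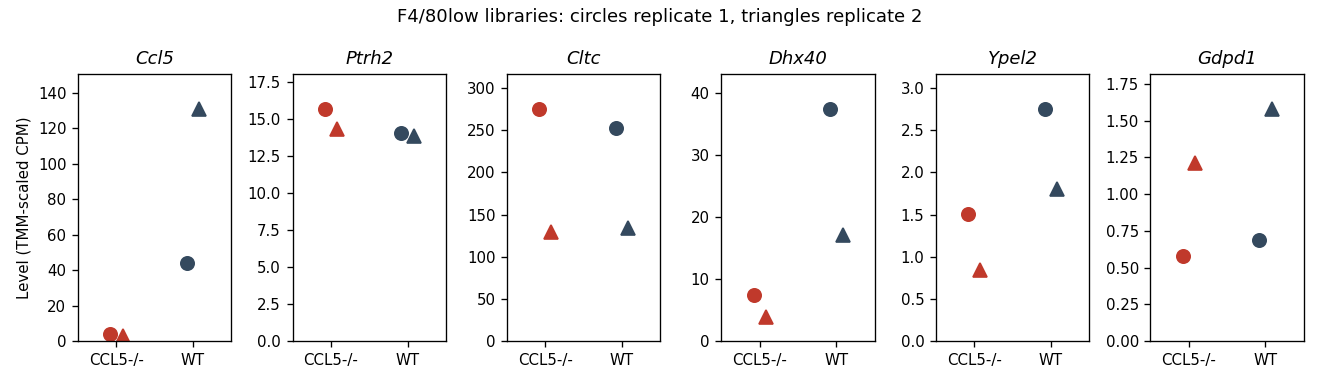
Level of Ccl5, Dhx40 and the 2 tested neighbours on each side of Dhx40 in the 4 F4/80low libraries, in TMM-scaled CPM on a linear axis that starts at 0 and differs between panels, CCL5-/- left and WT right, circles for replicate 1 and triangles for replicate 2. Dhx40 lies between 3.97 and 7.44 CPM in CCL5-/- and between 17.2 and 37.4 CPM in WT, while Cltc next to it lies at 275 and 129.6 CPM in CCL5-/- and at 252 and 134 CPM in WT.

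Dhx40 (GRCm38 chr11:86768846-86807746, minus strand, protein-coding) overlaps no other gene model in GENCODE M21. The gene starts 3.24 Mb beyond Ccl5. The region before the transcription start is shown for Dhx40, whose level differed, and for Cltc, the abundant gene next to it whose level did not pass any test of genotype. Both come from RefSeq (GRCm38.p6) and run 5′ to 3′ on the minus strand from 250 bases before the start to 50 after it, at chr11:86807611-86807910 for Dhx40 and chr11:86757518-86757817 for Cltc.
Dhx40: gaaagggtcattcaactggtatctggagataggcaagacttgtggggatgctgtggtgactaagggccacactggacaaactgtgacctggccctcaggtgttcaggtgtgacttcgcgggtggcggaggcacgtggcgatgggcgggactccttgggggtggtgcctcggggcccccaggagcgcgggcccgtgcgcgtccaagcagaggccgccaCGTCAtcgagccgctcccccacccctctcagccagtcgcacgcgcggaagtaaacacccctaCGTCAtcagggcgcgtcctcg
Cltc: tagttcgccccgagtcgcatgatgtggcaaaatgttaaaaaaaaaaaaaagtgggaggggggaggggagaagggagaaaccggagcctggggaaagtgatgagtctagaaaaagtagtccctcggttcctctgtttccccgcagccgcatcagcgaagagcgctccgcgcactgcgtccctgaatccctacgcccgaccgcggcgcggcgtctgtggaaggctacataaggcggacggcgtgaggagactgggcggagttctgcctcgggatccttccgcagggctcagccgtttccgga
The capitals mark CGTCA, searched on both strands (TGACG on the other) and part of the cyclic AMP response element, a motif chosen after the sequence was read. Dhx40 holds 2 copies and Cltc 0. Of the 32851 promoters in the table, 20.8% hold at least 1 copy and 5.01% at least 2. A promoter was listed for 65 of the 77 neighbours, with 75 promoters in all, of which 27 hold at least 1 copy and 10 at least 2. The match is a description of these letters only.

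None of the tested genes flanking Dhx40 passed. Within 0.5 Mb of its start lay 11 other neighbours, of which 10 were tested and Ppm1e was not. Of these 10, 0 passed in the edgeR fit with or without the replicate term. The pair values of the 11 lay between -1.01 and 1.18. Cltc had 2366 and 3529 reads in the CCL5-/- libraries and 1469 and 4084 in the WT libraries, with a log2 change of 0.07 (SE 0.57) and pair values of 0.12 and -0.05. Like Dhx40, Cltc was lower in replicate 2 of either genotype. Ptrh2, which encodes a mitochondrial peptidyl-tRNA hydrolase, was at 15.7 and 14.3 CPM in CCL5-/- and at 14.1 and 13.9 CPM in WT (log2 change 0.10, SE 0.34).

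On the other side the nearest neighbour was Ypel2, of the Yippee-like family. It had 13 and 23 reads in CCL5-/- and 16 and 55 in WT, or 1.51 and 0.845 CPM in CCL5-/- and 2.75 and 1.81 CPM in WT. Its groups did not overlap, but its log2 change of -0.96 (SE 0.67) did not pass (edgeR adjusted p = 1.0, and 0.91 with the replicate term), and its counts were low. Gdpd1, a glycerophosphodiester phosphodiesterase gene, had 5 and 33 reads in CCL5-/- and 4 and 48 in WT, and its groups overlapped.

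Per kilobase of exon, Dhx40 was a mid-ranking neighbour. On the scale of CPM per kilobase of GENCODE exon it was at 1.76 and 0.937 in CCL5-/- and at 8.85 and 4.05 in WT, rank 28 of 74 neighbours with an exon length by the mean of the 4 libraries. The median neighbour was at 2.36 on that scale. Vmp1, which encodes a membrane protein of autophagy, had the highest level on that scale, at 33.4 and 34.8 in CCL5-/- and at 27.8 and 45.5 in WT.

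The second question was whether the neighbours moved together. Their changes lay on both sides of 0. Over the 74 tested neighbours the median log2 change was 0.02 (quartiles -0.21 and 0.18), against 0.00 (-0.21 and 0.20) over the 881 tested chromosome 11 genes outside the interval and -0.01 (-0.25 and 0.18) over all 12710 tested genes. Over all 77 neighbours the median was 0.15 for replicate 1 and -0.09 for replicate 2, so the 2 pairs lay on opposite sides of 0. The 945 chromosome 11 genes outside the interval with 20 or more reads had 0.02 and -0.02.

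Of the 77 neighbours, 20 were higher and 17 lower in CCL5-/- in both pairs, and 40 had opposite signs. Of the 945 chromosome 11 genes outside the interval, 247 were higher and 243 lower in both pairs, and 455 had opposite signs. Of all 12710 tested genes, 3157 (24.8%) were higher and 3370 (26.5%) lower in both pairs. Across the 77 neighbours Spearman's rho between the pairs was 0.08, and across the 945 genes outside it was 0.05. These are descriptions across genes of the same libraries, and genes are not independent replicates.

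**Figure D2:**
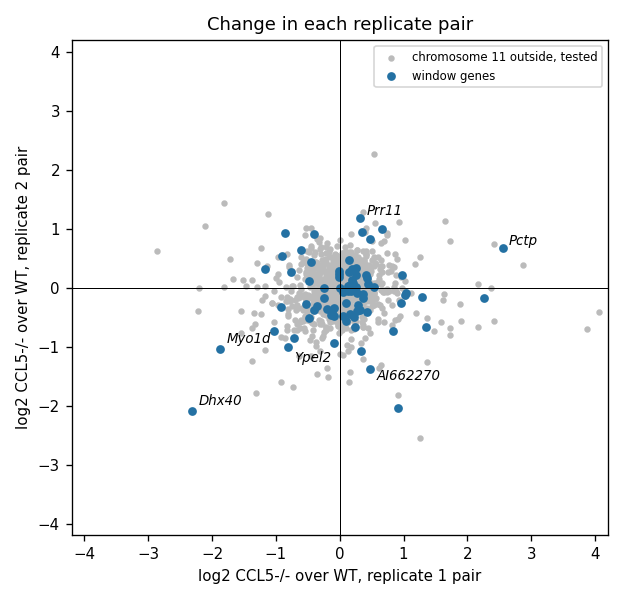
Log2 change (CCL5-/- over WT) of each neighbour (blue) and of each tested chromosome 11 gene outside the interval (grey), replicate 1 pair on the horizontal and replicate 2 pair on the vertical axis. Dhx40 lies alone at -2.31 and -2.08, and most neighbours lie within the grey cloud around 0; 1 grey gene lies beyond the axes.

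Some neighbours had groups that did not overlap. Of the 74 tested neighbours 10 were higher in both CCL5-/- libraries than in both WT libraries (13.5%, against 8.36% of all tested genes and 10.7% of chromosome 11 genes outside). Another 7 were lower in both (9.46%, against 8.24% and 8.97%). The difference between these shares was not tested. The 7 lower ones were Crlf3, Rnf135, Dhrs11, Dhx40, Ypel2, Rad51c and Sept4, and the 10 higher ones AA465934, Dusp14, Tada2a, Rnft1, Ptrh2, Prr11, Trim37, Mtmr4, Vezf1 and Pctp. Apart from Dhx40 none of these passed in any fit.

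A change of at least 2-fold downward in both pairs was seen in 2 of 74 tested neighbours, against 110 of all tested genes (0.865%) and 3 of the chromosome 11 genes outside (0.341%). These 2 were Dhx40 and Myo1d, a class I myosin gene. Myo1d had 26 and 12 reads in CCL5-/- and 66 and 31 in WT, or 3.02 and 0.441 CPM in CCL5-/- and 11.3 and 1.02 CPM in WT. Its genotypes overlapped because replicate 1 of CCL5-/- lay above replicate 2 of WT, and it passed in neither fit (log2 change -1.87, SE 1.38; with the replicate term -1.60, SE 0.48, edgeR adjusted p = 0.41). A difference of 2-fold or more in either direction was seen in 8 of 74 tested neighbours in the replicate 1 pair (10.8%, against 8.73% of all tested genes and 7.15% of chromosome 11 genes outside). In the replicate 2 pair it was seen in 7 (9.46%, against 6.14% and 3.86%). The size of the change was lower where reads were more numerous, with Spearman's rho between reads and absolute change of -0.45 for replicate 1 and -0.29 for replicate 2 (77 genes).

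Several of the largest single-pair values rested on few reads or went opposite ways. Pctp, a phosphatidylcholine transfer gene at the far edge of the interval, had 22 and 55 reads in CCL5-/- and 2 and 37 in WT. AI662270, a noncoding transcript among the Slfn genes, had 212 and 738 reads in CCL5-/- and 103 and 2135 in WT, with pair values of 0.48 and -1.37. Pigw, an enzyme of the anchor of membrane proteins, had 25 and 46 reads in CCL5-/- and 3 and 58 in WT, with pair values of 2.27 and -0.16. Pctp was named by the rule for the edge of the interval and Pigw by its list, and AI662270 was chosen after its values were seen, as was Vmp1 above.

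The third question was distance from Ccl5. Changes of both signs were found in each distance bin in both pairs, except that all 5 neighbours at 2 to 3 Mb were higher in CCL5-/- in the replicate 1 pair. Among the 20 neighbours within 1 Mb of the Ccl5 start the median change was 0.21 for replicate 1 and 0.01 for replicate 2, and 3 of the 20 had groups that did not overlap, all higher in CCL5-/-. Of all tested genes, 8.36% had higher and 8.24% lower groups that did not overlap, and the difference from these shares was not tested. Among the 11 neighbours at 1 to 2 Mb the medians were -0.09 and -0.16, among the 5 at 2 to 3 Mb 0.26 and -0.29, among the 34 at 3 to 5 Mb 0.15 and -0.11, and among the 7 beyond 5 Mb 0.19 and 0.12. Of the 34 neighbours at 3 to 5 Mb, Dhx40 included, 5 had higher and 6 lower groups that did not overlap. Among the 350 chromosome 11 genes with 20 or more reads that lay outside the interval and 6.5 to 20 Mb from Ccl5, these counts were 42 and 32. On the lower-coordinate side the neighbours end at -3.48 Mb (Crlf3), so those beyond 5 Mb all lie on the higher-coordinate side. Genes outside the interval but nearer to Ccl5 than 6.5 Mb, such as Suz12, are in none of these bins. Median absolute changes in the replicate 1 and 2 pairs were 0.42 and 0.35 within 1 Mb and 0.35 and 0.30 at 3 to 5 Mb. They were 0.31 and 0.28 among the same 350 genes outside. Spearman's rho between distance and absolute change was 0.04 for replicate 1 and -0.15 for replicate 2 over the 77 neighbours.

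**Figure D3:**
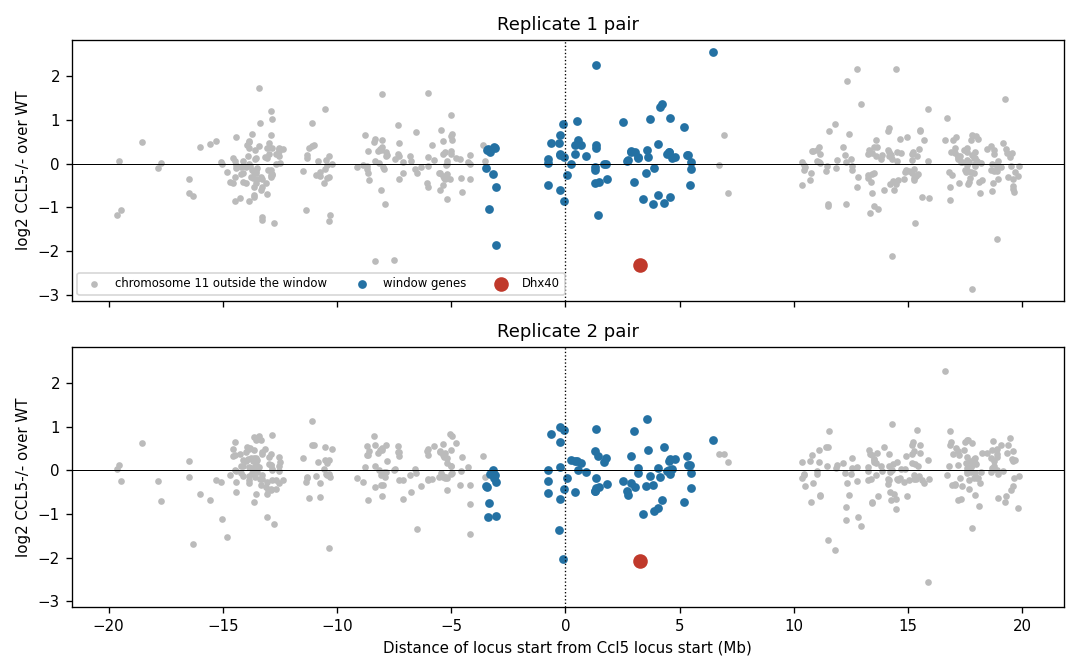
Log2 change (CCL5-/- over WT) against distance of the locus start from the Ccl5 start in Mb, replicate 1 pair above and replicate 2 pair below. Neighbours are blue, Dhx40 is red, and tested chromosome 11 genes outside the interval and less than 20 Mb from Ccl5 are grey. Dhx40, 3.24 Mb from Ccl5, is the lowest blue point in both panels at -2.31 and -2.08, and the points near 0 Mb spread to both sides of 0.

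The 8 tested neighbours closest to Ccl5 did not pass. On its lower-coordinate side Taf15, an RNA-binding protein gene of the FET family and 0.05 Mb away, was at 54.5 and 36.7 CPM in CCL5-/- and at 49.0 and 49.7 CPM in WT (log2 change -0.11, SE 0.38). Mmp28, a matrix metalloproteinase gene, was at 1.74 and 1.73 CPM in CCL5-/- and at 3.26 and 0.855 CPM in WT, and 1700020L24Rik, which overlaps it, at 1.39 and 0.477 CPM in CCL5-/- and at 0.687 and 2.30 CPM in WT. The change of both had opposite signs in the pairs. Ap2b1, a subunit of the clathrin adaptor AP-2, was at 89.7 and 53.7 CPM in CCL5-/- and at 77.8 and 50.9 CPM in WT (0.16, SE 0.45).

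On the higher-coordinate side E230016K23Rik, whose model overlaps Ccl6, had 34 reads in all. Heatr6 was at 15.8 and 10.4 CPM in CCL5-/- and at 16.0 and 8.88 CPM in WT (0.09, SE 0.47). Ddx52, a DEAD-box helicase gene known in yeast for ribosomal RNA processing, was at 28.8 and 24.5 CPM in CCL5-/- and at 24.7 and 34.7 CPM in WT (-0.16, SE 0.37), and Synrg, a binding partner of clathrin adaptor AP-1, had a log2 change of 0.37 (SE 0.65). The groups of all 8, taken as the nearest 4 on each side, overlapped. AA465934, on the lower-coordinate side and nearer to Ccl5 than Ddx52 and Synrg, is not among them, and its groups did not overlap. It was at 3.60 and 2.94 CPM in CCL5-/- and at 2.23 and 1.41 CPM in WT (0.87, SE 0.56), and it was chosen after its values were seen.

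At the low-coordinate edge Crlf3 inside the interval had a log2 change of -0.22 (SE 0.35) and Suz12 just outside -0.03 (SE 0.37). At the other edge Pctp inside had 1.41 (SE 0.77) and Mmd outside 0.18 (SE 0.36). The neighbours with the fewest reads were Ppm1e (27 reads), Rnf43 (31) and C030037D09Rik (33), which were the 3 not tested, and the genes with the most reads under the minimum were Tbx2 (18 reads), Rhbdl3 (15) and Mpo (12).

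By function, part of the neighbours were grouped into lists of RNA processing, DNA repair, transcription, trafficking, ubiquitin, metabolism, cell division, peroxidase and signalling genes. Some neighbours are on no list and some are on more than 1. Without the replicate term no list had a member that passed, as 0 of all 74 tested neighbours did, and with it Dhx40 alone passed. Among all tested genes 26.5% were lower and 24.8% higher in both pairs, the shares to set beside the counts that follow. In the RNA processing list (13 neighbours, median log2 change 0.06) 1 member was lower in both pairs, Dhx40, and 4 were higher in both. Nle1, an assembly factor of the large ribosomal subunit, was at 17.0 and 38.6 CPM in CCL5-/- and at 12.2 and 21.7 CPM in WT (log2 change 0.71, SE 0.55; with the replicate term edgeR adjusted p = 0.55). It was higher in CCL5-/- within both pairs, and its groups overlapped because replicate 2 was the higher library of either genotype.

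In the DNA repair list (5 neighbours, median 0.15) 1 member was lower in both pairs, Rad51c, a recombinase paralogue. It had 27 and 105 reads in CCL5-/- and 35 and 148 in WT (-0.62, SE 0.45). Brip1, a helicase gene of interstrand crosslink repair, was at 8.14 and 4.08 CPM in CCL5-/- and at 4.12 and 4.87 CPM in WT (0.42, SE 0.52), with opposite signs in the pairs.

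The list of transcription factors and coregulators (5 neighbours, median 0.07) had 2 members higher in both pairs. Vezf1, a zinc finger factor, was at 35.1 and 37.8 CPM in CCL5-/- and at 29.4 and 32.4 CPM in WT (0.24, SE 0.34). Ggnbp2 was at 39.6 and 44.2 CPM in CCL5-/- and at 42.1 and 61.8 CPM in WT (-0.31, SE 0.38). In the trafficking list (11 neighbours, median 0.07) 2 were lower and 3 higher in both pairs. One of the 3 was Myo19, a mitochondrial myosin gene, at 10.3 and 6.21 CPM in CCL5-/- and at 8.07 and 3.16 CPM in WT (0.58, SE 0.61). Its model overlaps those of Pigw and Znhit3, so their reads may not be separable.

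The ubiquitin list (7 neighbours, 6 tested, median -0.32) had 4 members lower and 1 higher in both pairs. Rnf135, a ubiquitin ligase that activates the RNA sensor RIG-I, had 19 and 98 reads in CCL5-/- and 27 and 185 in WT, or 2.21 and 3.60 CPM in CCL5-/- and 4.64 and 6.08 CPM in WT. Both CCL5-/- libraries lay below both WT libraries, but the change did not pass (-0.88, SE 0.50; with the replicate term edgeR adjusted p = 0.83). Trim37, a ubiquitin ligase that limits centrosome formation, was at 20.7 and 19.5 CPM in CCL5-/- and at 18.7 and 14.1 CPM in WT (0.30, SE 0.36).

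The metabolism list (8 neighbours) had a median of 0.14, the list of mitosis and cell cycle genes (4 neighbours) 0.17 and the phosphatase and kinase list (5 neighbours, 4 tested) 0.21. Prr11, a proline-rich cell cycle gene, was at 19.3 and 19.2 CPM in CCL5-/- and at 15.5 and 8.42 CPM in WT (0.70, SE 0.43; with the replicate term edgeR adjusted p = 0.55). The genotypes did not overlap, and the gap was wider in the replicate 2 pair (1.18) than in the replicate 1 pair (0.32). Dusp14, a phosphatase of MAP kinases, was at 18.6 and 16.7 CPM in CCL5-/- and at 9.45 and 14.4 CPM in WT (0.56, SE 0.39), with a wider gap in the replicate 1 pair (0.97) than in the replicate 2 pair (0.22). Mtmr4, a phosphoinositide phosphatase gene in 2 of the lists, was at 14.5 and 11.02 CPM in CCL5-/- and at 10.7 and 10.6 CPM in WT (0.26, SE 0.37). Cdk5r1, the activator of the kinase Cdk5, was at 39.6 and 15.02 CPM in CCL5-/- and at 57.4 and 18.2 CPM in WT (-0.47, SE 0.73). Of the higher non-overlapping genes outside the lists, Rnft1 was at 15.5 and 14.7 CPM in CCL5-/- and at 12.9 and 11.6 CPM in WT (0.30, SE 0.35), and its locus is shared with Rps6kb1.

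The 3 peroxidase genes of the interval did not reach 20 reads. Mpo, the peroxidase of neutrophil granules, had 0 and 5 reads in CCL5-/- and 2 and 5 in WT. Epx, the eosinophil peroxidase, had 0 and 0 reads in CCL5-/- and 4 and 4 in WT. Lpo, the lactoperoxidase, had 0 in all 4 libraries.

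The change of Dhx40 was then set beside its family. All 17 DEAH-box helicase genes of the list were tested. In the fit without the replicate term 0 passed, and with it 1 did, Dhx40. The median log2 change of the 17 was 0.08, with 4 members lower and 6 higher in CCL5-/- in both pairs. Among all tested genes 26.5% were lower and 24.8% higher in both pairs. Of the 3 members on chromosome 11 outside the interval, Dhx33 had 0.21 (SE 0.45), Dhx8 0.00 (SE 0.55) and Dhx58, an interferon-induced regulator of RIG-I signalling, -0.29 (SE 0.38). After Dhx40 the smallest p-values belonged to Dqx1 and Dhx37. Dqx1 had 6 and 19 reads in CCL5-/- and 10 and 51 in WT (-1.27, SE 0.67, edgeR adjusted p = 1.0). Dhx37 was at 18.02 and 17.5 CPM in CCL5-/- and at 13.6 and 11.9 CPM in WT (0.48, SE 0.34).

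**Figure D4:**
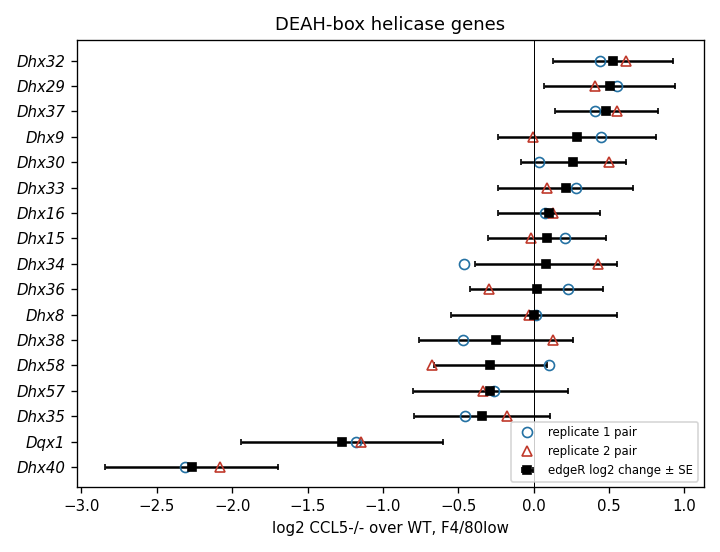
Log2 change (CCL5-/- over WT) of the 17 DEAH-box helicase genes in F4/80low, with the edgeR estimate and its SE (squares and bars), the replicate 1 pair (circles) and the replicate 2 pair (triangles). Dhx40 at -2.27 and Dqx1 at -1.27 lie to the left, and the other 15 lie between -0.34 and 0.53.

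The pattern of Dhx40 over the 4 libraries, after the mean of each replicate number was taken away, was most like those of Bcas3, Usp32 and Rffl, with Pearson's r over 4 libraries of 0.9998, 0.9998 and 0.997. After that step only the 2 pair values of a gene remain, so the measure scores their balance and not the size of the change. Any gene lower in CCL5-/- by a similar amount in both pairs scores high, and these were the 3 highest among the neighbours. Usp32, a deubiquitinase gene, was at 27.5 and 11.3 CPM in CCL5-/- and at 36.6 and 14.8 CPM in WT (pair values -0.41 and -0.38). Rffl, a ubiquitin ligase gene whose locus is shared with Lig3, had -0.48 and -0.51. Bcas3, which overlaps several noncoding models, had -0.36 and -0.31. The groups of all 3 overlapped and none passed.

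The F4/80hi gate was profiled as FPKM (fragments scaled to transcript length and depth) in 1 library per label, so there is no replicate check. The title and the genotype field of each of these libraries name opposite genotypes, and the groups here follow the field. The library labelled CCL5-/- had 145 FPKM of Ccl5 and the library labelled WT had 15.7 FPKM, which goes against the labels. For Dhx40 the values were 14.0 FPKM under the CCL5-/- label and 3.13 FPKM under the WT label, a log2 difference of 1.86 on the scale of FPKM plus 1. The titles carry ko and wt the other way round, and by the titles both genes would be lower in the knockout.

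Among the 65 neighbours with an FPKM of at least 1 in either library, Dhx40 was the only one at least 2-fold higher in the library labelled CCL5-/-, against 2.34% of all genes at that level and 1.01% of the chromosome 11 genes outside the interval. Another 2 neighbours, AA465934 and Pctp, were at least 2-fold lower (1.6% of all genes and 1.51% of chromosome 11 genes outside). Cltc had 69.1 FPKM under the CCL5-/- label and 69.5 FPKM under the WT label.

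These 2 libraries were not treated as an independent measurement of Dhx40. Over 6677 genes with 20 to 400 reads, the ratio of the library labelled WT to the library labelled CCL5-/- predicted how reads split between CCL5-/- replicate 1 and WT replicate 1 of F4/80low with a median chi-square of 0.335, against a median of 0.455 for a chi-square with 1 degree of freedom. For the replicate 2 pair the median was 6.21. Set against the replicate 1 pair, the F4/80hi values differed by less than sampling noise, so both pairs of libraries were counted as 1. Whether the matching values belong to F4/80low or F4/80hi cells cannot be told from them. The replicate 1 and replicate 2 libraries may therefore also differ in gate, and the name F4/80low follows the labels.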

How the data were processed

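The read counts per gene, the FPKM values with their bounds and a table of the authors' comparison were deposited by the authors. That table, made by the authors, holds counts divided by size factors (a normalised signal), a log2 fold change, its standard error and a test statistic (scores), and p-values. Per the submitters' processing notes, STAR, HTSeq, DESeq2, TopHat2 2.1.1 and Cufflinks 2.2.1 were among the tools and mm10 among several builds. Which made which table, and the use of strand in counting, are not given in the sources used here, so genes with overlapping models cannot be separated (36 of 77 neighbours overlap another GENCODE M21 model).

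Loci came from the FPKM table. All 74 neighbours found in GENCODE M21 (GRCm38) overlapped the gene there. The main test was the robust quasi-likelihood F test of edgeR 4.0.16 (R 4.3.3) after filterByExpr and TMM scaling, two-sided, with Benjamini-Hochberg adjustment over 12710 genes and a threshold of 0.05; the SE is the absolute log2 change divided by the square root of F. DESeq2 1.42.0 and limma 3.58.1 were alternatives. The functions were checked on simulated counts. The F4/80low replicate numbers are not stated to pair libraries; the rRNA share split by them, so values within each number and a fit with it as a term are given.

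Besides Ccl5 and Dhx40, the genes named were those past the threshold and up to 8 highest and up to 8 lowest by log2 change. The highest and lowest needed genotypes that did not overlap and a log2 CPM that averaged 3 or more. Fewer than 8 met this in either direction, and among the lower ones only Dhx40 and Crlf3 did. Also named were the 4 nearest to Ccl5 and 2 nearest to Dhx40 on each side, the 2 of smallest p per list and 5 other DEAH-box genes. The peroxidases, the 3 most like Dhx40 and the genes at the edges of the rule were named too. Neighbours, lists and rules were chosen with earlier results of these data known. The cell marker lists were those of macrophages, neutrophils, eosinophils and mast cells, T and NK cells, B and plasma cells, fibroblasts, endothelium and epithelium.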

Additional observations from a re-analysis of the deposited data

Results flagged for a closer look

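Ccl5 and Dhx40 went in opposite directions in the 2 gates as labelled. In F4/80hi the log2 difference of the library labelled CCL5-/- over the library labelled WT was 3.12 for Ccl5 and 1.86 for Dhx40. In F4/80low the changes of CCL5-/- over WT were -3.39 and -5.39 for Ccl5 and -2.31 and -2.08 for Dhx40 in the replicate 1 and 2 pairs. The difference between the gates was not tested. The titles of the F4/80hi libraries name the opposite genotypes, and by the titles both genes would be lower in the knockout in both gates. With the labels swapped, the F4/80hi values differed from the replicate 1 pair of F4/80low by less than sampling noise. They are therefore not an independent measurement of a second gate.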

How the results depend on the processing

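The replicate numbers are not stated to pair libraries. With 2 numbers, the deviations of same-numbered libraries correlated at 0.728. In the fit without a replicate term 0 genes and 0 neighbours passed. With the replicate block 10 genes and 1 neighbour passed, with DESeq2 and the block 23 and 1, with limma-voom and the block 31 and 1, and with DESeq2 alone 1 and 0. The neighbour was Dhx40 each time, with log2 changes of -2.21, -2.20 and -2.20 in the 3 fits with the block. The block fits of DESeq2 and limma-voom, the synonym matches (83 neighbours) and the medians by pair were added after seeing the data. Leaving out 1 library gave 0 to 4 genes passing and 0 neighbours, -2.73 to -1.60 for Dhx40 and -0.13 to 0.25 for the median of the neighbours, the highest without WT replicate 1. Of 240 other alternatives over 40 named genes, 236 kept direction and call. Mmp28 was at -0.17 in the fit as reported, 0.15 with the block and 0.55 with limma-voom, Dhx8 at -0.0097 with the block, and Ccl5 passed with DESeq2 (-4.63); the cause was not tested.

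Of 160 values with a library left out, 34 changed sign, each such fit leaving the replicate numbers unbalanced. The ranges over the 4 left-out libraries were Ap2b1 (-0.21 to 0.50), 1700020L24Rik (-1.67 to 0.39), Mmp28 (-0.91 to 1.03), Taf15 (-0.38 to 0.14), E230016K23Rik (-1.78 to 1.40), Heatr6 (-0.29 to 0.57), Ddx52 (-0.37 to 0.11), Synrg (-0.43 to 1.06), Cltc (-0.53 to 0.60), Gdpd1 (-1.02 to 0.42), Nle1 (-0.0073 to 1.22). They were further Brip1 (-0.10 to 0.85), Myo1d (-3.69 to 0.71), Cdk5r1 (-1.27 to 0.58), Dhx33 (-0.15 to 0.54), Dhx8 (-0.56 to 0.59), Suz12 (-0.23 to 0.17), Mmd (-0.0091 to 0.40), Bcas3 (-0.85 to 0.25), Usp32 (-1.12 to 0.39), Rffl (-1.23 to 0.29). Low counts limit Ypel2, Gdpd1, Myo1d, Pctp and Mmp28.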
